A study of Homo sapiens with 12 samples.

Results

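The genes of the MYC, MAX and MXD network were followed in MNNG/HOS cells, a chemically transformed derivative of the HOS human osteosarcoma line, after treatment with NXP800. The network was taken as 10 genes, chosen by symbol: MYC, MYCN, MYCL, MAX, MXD1, MXD3, MXD4, MXI1, MNT and MGA. All 10 were present among the 43236 symbols of the count tables. NXP800 is a small oral molecule that the study examined as an activator of GCN2, a kinase of the integrated stress response. Cells received DMSO, the solvent control, or 300 nM NXP800, the concentration given in the study's methods. They were collected after 6 h or 24 h, with 3 replicate libraries in each of the 4 groups, labelled DMSO 6 h, NXP800 6 h, DMSO 24 h and NXP800 24 h. All groups came from this 1 cell line, with no other genetic change named in the labels. The labels do not say whether replicates were separate cultures, so the p-values below measure only the spread between these libraries.

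MYC, MYCN and MYCL are transcription factors that bind DNA at E-boxes as heterodimers with MAX and activate genes for growth, ribosome production and metabolism. MAX is also the partner of the MXD proteins (MXD1, MXD3, MXD4 and MXI1), of MNT and of MGA, which occupy the same E-boxes and repress transcription. MXD proteins and MNT bring in the SIN3 histone deacetylase complex, whereas MGA is a DNA-binding subunit of a variant Polycomb complex named PRC1.6. In dividing cells MYC is typically abundant, and several MXD genes rise as cells leave the cycle, with MXD3 an exception that is expressed around S phase. MYC is frequently gained in osteosarcoma.

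Each library held 30810614 to 31947656 counts on genes. Levels below are in CPM, the count of a gene relative to its library size after scaling by the trimmed mean of M-values (TMM). VIM, a mesenchymal filament gene, stood at 3338 to 5891 CPM, COL1A1 at 143 to 566 CPM and RUNX2, a master regulator of bone cells, at 20.8 to 42.5 CPM. In contrast, COL1A2, ALPL, SP7 and BGLAP, all of the osteoblast lineage, did not exceed 12 counts in any library. The blood marker PTPRC had at most 5 counts, the epithelial marker CDH1 at most 2 and the endothelial marker PECAM1 at most 29, while EPCAM, also epithelial, was at 5.59 to 10.2 CPM. Reads that the counting assigned to no annotated feature took 6.66% to 8.14% of the 6 h libraries and 2.73% to 3.67% of the 24 h libraries. Time and library set therefore cannot be told apart in a comparison across times. The study's own contrast, NXP800 against DMSO, was made within each time.

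To place the network genes on the genome, the promoter windows of RefSeq (GRCh38.p14) were read, each spanning 250 bases before and 50 bases after a transcription start. In all, 14 such windows were searched, for 9 of the 10 genes, and no window of MYC was among them. In these windows 4 motifs were searched on both strands, namely the E-box CACGTG, the composite element TGATGNAA of ATF4 and C/EBP, the ER stress element and the heat shock element GAANNTTC. Among all 35116 windows, 7.26% held the E-box, 3.62% the composite element, 0.0769% the ER stress element and 6.77% the heat shock element. The E-box, the site that the network proteins themselves recognise, was found in the windows of MNT and MXD4. They are shown with the windows of MXD1 and MXD3, the MXD genes with the largest changes in opposite directions, in which none of the 4 motifs was found. Capitals mark the E-box, and each sequence runs 5′ to 3′ on the strand of its gene.
MXD1 (chr2:69914859-69915158, plus strand): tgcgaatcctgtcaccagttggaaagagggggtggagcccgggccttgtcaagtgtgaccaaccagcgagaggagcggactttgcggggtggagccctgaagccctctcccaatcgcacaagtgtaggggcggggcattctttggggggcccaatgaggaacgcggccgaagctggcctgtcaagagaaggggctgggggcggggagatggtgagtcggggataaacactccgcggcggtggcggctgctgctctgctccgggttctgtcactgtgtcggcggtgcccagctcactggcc
MXD3 (chr5:177312703-177313002, minus strand): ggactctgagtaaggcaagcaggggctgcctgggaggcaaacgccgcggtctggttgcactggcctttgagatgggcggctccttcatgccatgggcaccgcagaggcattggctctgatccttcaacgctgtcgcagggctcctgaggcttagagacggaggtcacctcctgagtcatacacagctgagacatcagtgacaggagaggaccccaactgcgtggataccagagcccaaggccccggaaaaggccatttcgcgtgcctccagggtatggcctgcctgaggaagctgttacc
MXD4 (chr4:2262060-2262359, minus strand): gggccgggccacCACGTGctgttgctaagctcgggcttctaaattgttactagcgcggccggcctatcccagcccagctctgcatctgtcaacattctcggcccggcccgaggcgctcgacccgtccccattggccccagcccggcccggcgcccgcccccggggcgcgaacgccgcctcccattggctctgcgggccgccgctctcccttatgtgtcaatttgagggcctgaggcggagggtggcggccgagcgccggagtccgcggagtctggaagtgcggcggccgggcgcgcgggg
MNT (chr17:2401011-2401310, minus strand): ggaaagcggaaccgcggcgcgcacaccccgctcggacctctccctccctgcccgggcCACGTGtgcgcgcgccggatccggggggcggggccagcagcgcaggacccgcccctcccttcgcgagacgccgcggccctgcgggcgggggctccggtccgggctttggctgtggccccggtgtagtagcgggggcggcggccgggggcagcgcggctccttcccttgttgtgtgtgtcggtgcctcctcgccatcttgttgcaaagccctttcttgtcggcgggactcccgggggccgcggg
The E-box began 193 bases before the start of MNT and 238 bases before that of MXD4. A heat shock element match, GAACCTTC, lay 209 bases before a start of MGA in the window chr15:41660155-41660454. None of the 14 windows searched held the composite element or the ER stress element. A match is a description of the letters only, and binding was not measured here.

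After 6 h of NXP800, 6 of the 9 network genes that could be tested rose, namely MYC, MXD1, MNT, MGA, MXI1 and MAX, and MXD3 fell. MYC and MXD1 rose the most, 5.13-fold and 5.93-fold. After 24 h, 7 of 9 rose, MYCL being added to the 6, and MXD3 again fell. MYCN was too low to be tested. Genes were called at an adjusted p under 0.05 by the quasi-likelihood test of edgeR, with p-values adjusted by Benjamini-Hochberg across the 15979 genes tested. By that rule 25.0% of all tested genes rose and 27.8% fell at 6 h, and 27.5% rose and 28.6% fell at 24 h. A rise of over 2-fold was called for 2 network genes at 6 h, against 6.02% of all genes, and for 3 at 24 h, against 6.73%. The NXP800 and DMSO libraries did not overlap for 8 of the 9 genes at either time, while the same held for 62.0% of all genes at 6 h and 59.1% at 24 h. For the 9 genes the log2 fold changes had a median of 0.39 (6 h) and 0.82 (24 h), beside -0.046 and -0.0033 over all tested genes.

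**Figure D1:**
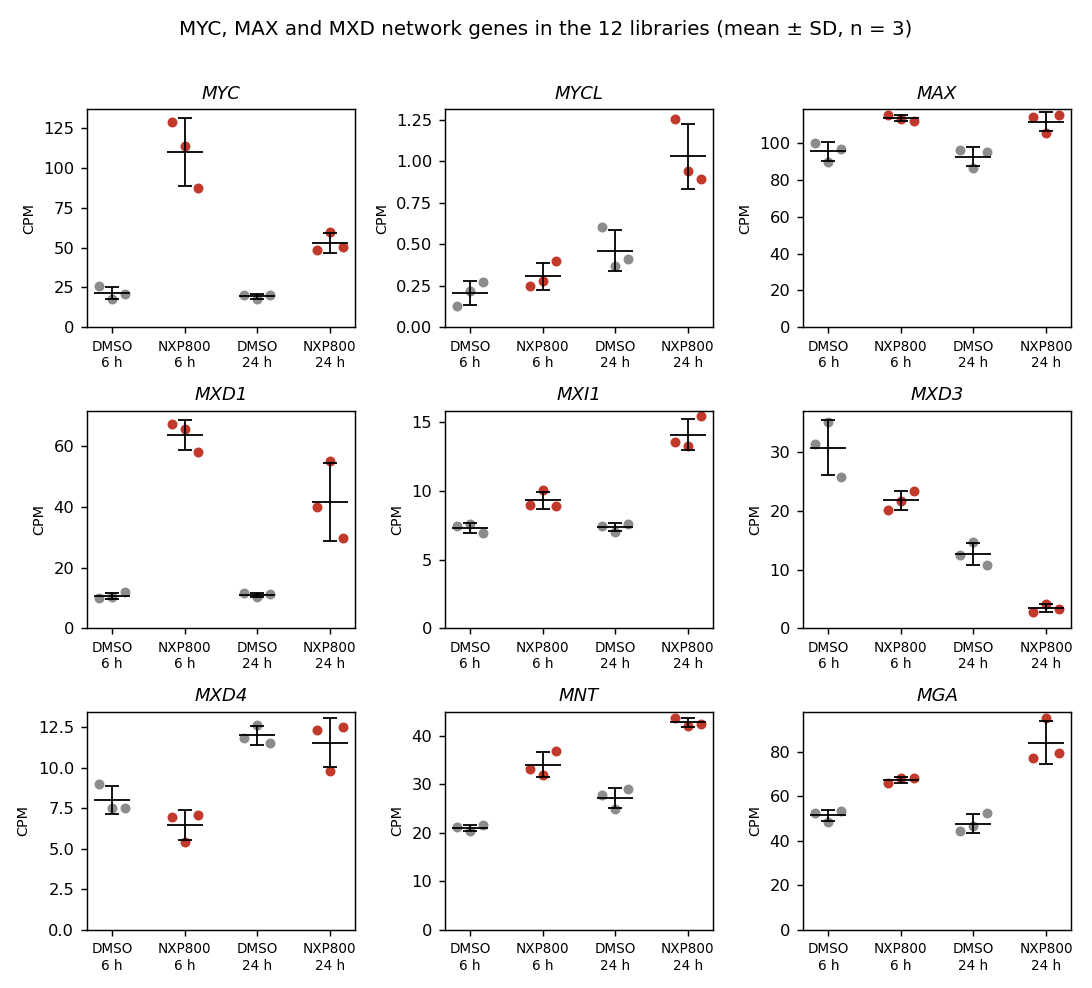
CPM of 9 network genes in the 12 libraries, 1 panel per gene with its own vertical axis from 0. Grey points are DMSO and red points NXP800 libraries, in order of replicate number, and the bars give the mean ± SD (n = 3). MYC and MXD1 stand high in every NXP800 library and MXD3 is lowest in the NXP800 24 h libraries. MYCN, with at most 3 counts per library, is not drawn.

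Among the activators, MYC is the principal growth-promoting member. It had 807, 565 and 689 counts in the DMSO 6 h libraries and 4199, 3719 and 2841 in the NXP800 6 h libraries. At 24 h the counts were 610, 526 and 596 with DMSO and 1474, 1905 and 1572 with NXP800. Every NXP800 library was above every DMSO library, and the 6 h treated libraries were above the 24 h treated ones. In CPM, MYC went from 21.4 ± 3.90 to 110 ± 21.1 at 6 h and from 19.5 ± 1.59 to 52.9 ± 6.00 at 24 h (mean ± SD, n = 3). The log2 fold change was 2.36 (SE 0.14, adjusted p = 2.08e-09, edgeR) at 6 h, which placed MYC 120th from the top of all tested genes. At 24 h it was 1.44 (SE 0.14, adjusted p = 3.4e-07, edgeR), or 2.71-fold, at rank 575. The response at 24 h was thus smaller than at 6 h by a log2 difference of -0.92 (SE 0.20, adjusted p = 0.00275, edgeR). Within the NXP800 6 h group, replicate 3 had the lowest MYC and also the lowest MXD1.

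MYCL, a MYC paralogue with a more restricted expression, was barely detected. It had 4, 7 and 9 counts in DMSO and 8, 9 and 13 in NXP800 at 6 h, so that the groups overlapped. At 24 h the counts were 18, 11 and 12 with DMSO and 38, 30 and 28 with NXP800, without overlap. On the log2 scale MYCL changed by 0.55 at 6 h (SE 0.40, adjusted p = 0.262, edgeR) and 1.15 at 24 h (SE 0.29, adjusted p = 0.00336, edgeR). Even after this 2.22-fold rise, the mean level of MYCL was 1.03 CPM. The responses at both times were not distinguishable, with a log2 difference of 0.59 (SE 0.51, adjusted p = 0.43, edgeR). MYCN, the paralogue of neural tissues, had 0 to 3 counts in every library. No count was found in the NXP800 24 h libraries, which allows up to 0.0321 CPM over that group (3 counts, counting error only).

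MAX, the common partner, moved little. Its counts were 3156, 2850 and 3195 with DMSO and 3760, 3701 and 3662 with NXP800 at 6 h. At 24 h they were 2877, 2579 and 2771 with DMSO and 3459, 3374 and 3614 with NXP800. The groups did not overlap at either time. MAX rose 1.19-fold at 6 h (log2 0.25, SE 0.062, adjusted p = 0.00305, edgeR) and 1.21-fold at 24 h (log2 0.27, SE 0.062, adjusted p = 0.00156, edgeR). On the opposite strand, FNTB overlaps 13.1% and the readthrough gene CHURC1-FNTB 9.96% of the annotated MAX exon length, and FNTB stood at only 0.634 to 1.49 CPM on average per group.

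Among the antagonists, MXD1, a repressor induced during differentiation, had the highest fold change of the network at both times. Its counts were 315, 328 and 390 with DMSO and 2192, 2149 and 1885 with NXP800 at 6 h. At 24 h they were 345, 308 and 333 with DMSO and 1212, 1756 and 930 with NXP800. The treated groups were above all controls at both times, and the 3 treated 24 h libraries were widely spread. Levels rose from 10.7 ± 0.991 to 63.6 ± 5.05 CPM at 6 h and from 11.1 ± 0.655 to 41.6 ± 12.8 CPM at 24 h (mean ± SD, n = 3). This was a log2 rise of 2.57 at 6 h (SE 0.16, adjusted p = 4.05e-09, edgeR), 89th from the top of all genes. It was 1.90 at 24 h (SE 0.16, adjusted p = 6.96e-08, edgeR), a 3.74-fold rise. The log2 difference between the responses, -0.66, just passed the threshold (SE 0.23, adjusted p = 0.0409, edgeR). This last call is fragile, since it was kept in only 3 of the 12 fits that left out a library, with values from -0.92 to -0.47. With NXP800 24 h replicate 3, the lowest treated library, left out, the difference was -0.47.

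MXI1, the MXD family member also known as MXD2, rose at both times and more at 24 h. It had 235, 242 and 228 counts with DMSO and 292, 328 and 290 with NXP800 at 6 h. At 24 h there were 222, 209 and 222 counts with DMSO and 411, 424 and 483 with NXP800. Again the groups did not overlap. MXI1 increased 1.27-fold at 6 h (log2 0.34, SE 0.10, adjusted p = 0.00885, edgeR) and 1.92-fold at 24 h (log2 0.94, SE 0.099, adjusted p = 7.93e-07, edgeR). The 24 h response exceeded that at 6 h by 0.59 on the log2 scale (SE 0.14, adjusted p = 0.00577, edgeR).

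MXD3 was the MXD gene that fell. It had 989, 1111 and 847 counts with DMSO and 657, 710 and 763 with NXP800 at 6 h. At 24 h the counts were 372, 436 and 315 with DMSO and only 87, 133 and 106 with NXP800. The groups were separate at both times. MXD3 was 1.41-fold lower at 6 h (log2 -0.50, SE 0.13, adjusted p = 0.00403, edgeR) and 3.63-fold lower at 24 h (log2 -1.86, SE 0.16, adjusted p = 5.43e-08, edgeR), where it ranked 348th from the bottom of all genes. The decrease was larger at 24 h by a log2 difference of -1.37 (SE 0.20, adjusted p = 0.000147, edgeR). The DMSO level of MXD3 itself was 30.7 CPM at 6 h and 12.6 CPM at 24 h, a ratio of 0.412 with no overlap. In the GENCODE annotation, exons of other genes share 43.7% of the MXD3 exon length. These are PRELID1 on the opposite strand (24.2%) and RAB24 on the same strand (19.5%). The counts were made on RefSeq genes, for which the overlap was not measured. The strand setting of the counting is not given in the sources used here. PRELID1, a mitochondrial lipid transfer gene, fell as well (log2 -0.42 at 6 h and -0.75 at 24 h, both called), whereas RAB24 was called only with the replicate block, as a rise at 6 h (log2 0.22, adjusted p = 0.00982, edgeR). The part of this overlap in the MXD3 counts was not tested.

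MXD4, the last MXD member, was not called at either time. Its counts were 284, 239 and 247 with DMSO and 227, 177 and 230 with NXP800 at 6 h. At 24 h they were 354, 376 and 336 with DMSO and 373, 313 and 393 with NXP800. The groups were separate at 6 h and overlapped at 24 h. Its log2 values were -0.31 at 6 h (SE 0.13, adjusted p = 0.0602, edgeR) and -0.056 at 24 h (SE 0.12, adjusted p = 0.721, edgeR). With the replicate number as a block, the 6 h value was again -0.31 and passed the threshold (adjusted p = 0.0216, edgeR). The part of the E-box shown above in the responses of MXD4 and MNT was not tested.

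MNT, the most widely expressed MYC antagonist, rose at both times. It had 667, 647 and 712 counts with DMSO and 1083, 1046 and 1201 with NXP800 at 6 h. At 24 h it had 832, 741 and 844 with DMSO and 1326, 1343 and 1330 with NXP800. No treated library overlapped the controls of its time. The rise was 1.62-fold at 6 h (log2 0.69, SE 0.076, adjusted p = 1.51e-06, edgeR) and 1.57-fold at 24 h (log2 0.65, SE 0.075, adjusted p = 2.05e-06, edgeR). The log2 difference between times was -0.042 (SE 0.11, adjusted p = 0.814, edgeR).

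MGA, the large scaffold of PRC1.6, rose more at 24 h. It had 1660, 1531 and 1748 counts with DMSO and 2145, 2222 and 2223 with NXP800 at 6 h. At 24 h it had 1319, 1382 and 1527 with DMSO and 2340, 3037 and 2493 with NXP800. The treated libraries lay above all controls. The increase was 1.31-fold at 6 h (log2 0.39, SE 0.083, adjusted p = 0.00084, edgeR) and 1.76-fold at 24 h (log2 0.82, SE 0.083, adjusted p = 4.92e-07, edgeR), with a log2 difference of 0.43 (SE 0.12, adjusted p = 0.014, edgeR).

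**Figure D2:**
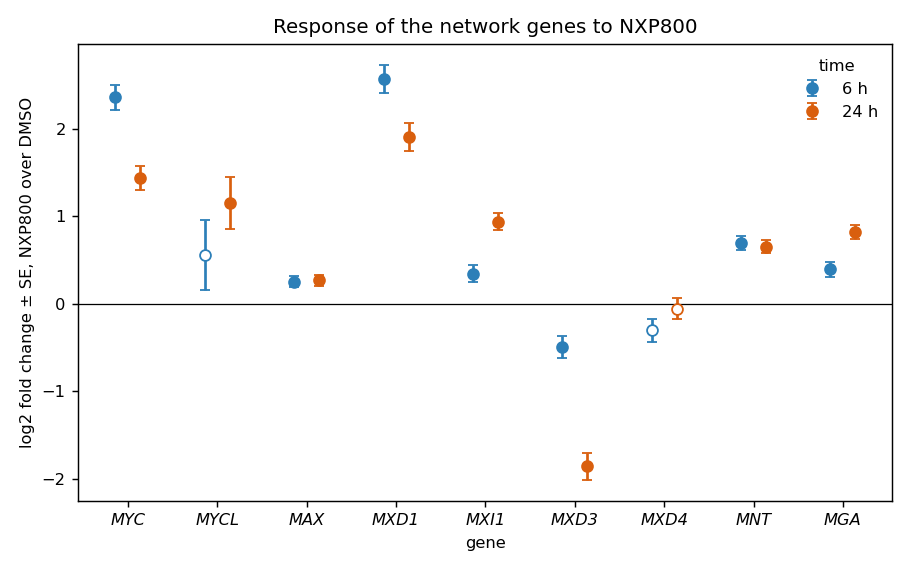
Log2 fold change of NXP800 over DMSO (vertical axis) for 9 network genes, at 6 h in blue and 24 h in orange. Points are edgeR estimates with their SE, filled where the adjusted p is under 0.05 and open otherwise. MYC (2.36) and MXD1 (2.57) lead at 6 h, and MXD3 (-1.86) is the lowest at 24 h.

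The responses at both times differed for 5 of the 9 tested genes. The 24 h response was above the 6 h response for 2, MXI1 and MGA, and below it for 3, MYC, MXD1 and MXD3. Over all tested genes these shares were 12% above and 13.8% below.

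To compare the genes with each other, CPM were divided by the length of all exons annotated in GENCODE, in kilobases. The counts themselves were made on RefSeq genes. With DMSO at 6 h, MAX was the highest at 15.3 CPM per kb, before MXD3 at 6.47, MYC at 3.51, MGA at 2.56 and MNT at 2.42. MXD1 (1.69), MXI1 (1.24) and MXD4 (1.17) followed, with MYCL at 0.0417 and MYCN at 0.0112. Of these neighbours, MGA and MNT overlapped between libraries, as did MXI1 and MXD4. With NXP800 at 6 h, MYC reached 18 CPM per kb and overlapped MAX at 18.2, and MXD1 came next at 10.02. MXD3 (4.59), MNT (3.91), MGA (3.36), MXI1 (1.58) and MXD4 (0.943) were in separate steps below. The order depends on the length used. With the canonical transcript of each gene, a length chosen after seeing the data, MAX was at 56.6 and MYC at 29.6 CPM per kb in the same libraries, and MXD3 at 20.4 stood above MXD1 at 11.5.

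With DMSO at 24 h, MAX led at 14.8 CPM per kb. It was followed by MYC at 3.20, MNT at 3.13, MXD3 at 2.67 and MGA at 2.38, each overlapping the next. MXD1 and MXD4, both at 1.75, and MXI1, at 1.25, were lower. With canonical transcript lengths the order in this group changed, and MXD3 (11.85) and MNT (5.53) stood above MYC (5.25). With NXP800 at 24 h, MAX stood at 17.9, MYC at 8.65, MXD1 at 6.55 and MNT at 4.92 CPM per kb. MYC overlapped MXD1, and MXD1 overlapped MNT. MGA (4.19), MXI1 (2.39), MXD4 (1.68) and MXD3 (0.733) came after in separate steps, so MXD3 was the lowest MXD gene in this group, whereas with canonical transcript lengths MXD3 (3.26) stood above MXD4 (2.99). Between the DMSO groups, MNT had a 24 h to 6 h ratio of 1.29, MXD4 of 1.499 and MYCL of 2.23, without overlap, and MYC, MAX, MXD1, MXI1 and MGA overlapped.

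The balance of activators and antagonists was described at the level of RNA, and protein of these genes was not measured here. It was taken as the share of MYC, MYCN and MYCL in the summed level per kilobase of all MAX partners. With DMSO at 6 h this share was 21.1%, 15.5% and 19.3% in the 3 libraries, and with NXP800 it was 46.4%, 43.3% and 37.2%. At 24 h the shares were 21.3%, 18.9% and 21.0% with DMSO and 29.3%, 30.4% and 31.02% with NXP800. Treated libraries were above the controls at both times, and no test was made, since this is a score over the chosen genes. The sum of antagonists was higher with NXP800 too, going from 15.5 ± 0.764 to 24.4 ± 0.150 CPM per kb at 6 h and from 12.9 ± 0.0873 to 20.5 ± 2.13 at 24 h (mean ± SD, n = 3). With canonical transcript lengths these sums were 43.4 ± 4.07 and 48.7 ± 1.15 at 6 h and 28.5 ± 1.14 and 33.4 ± 2.79 at 24 h. The ratio of MYC to MXD1 was 1.79 to 2.66 with DMSO and 1.57 to 1.99 with NXP800 at 6 h. At 24 h it was 1.78 to 1.86 with DMSO and 1.13 to 1.76 with NXP800. The MXD group changed in composition. MXD1 made up 14.3% to 19.5% of the summed MXD level with DMSO and 54.9% to 60.97% with NXP800 at 6 h, whereas MXD3 went from between 56.8% and 64.8% to between 24.5% and 29.8%. At 24 h MXD1 went from 21.0% to 25.5% of the sum to between 47.6% and 65.5%, and MXD3 from between 32.4% and 39.9% to between 5.51% and 7.26%. With canonical transcript lengths the mean MXD1 share was 5.64% and 31.7% at 6 h and 10.6% and 41.5% at 24 h, so that MXD3 and not MXD1 was the main MXD gene with NXP800 at 6 h. The mean MXD3 share was then 82.3% and 56.3% at 6 h and 61.9% and 18.3% at 24 h, in DMSO and NXP800 respectively.

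**Figure D3:**
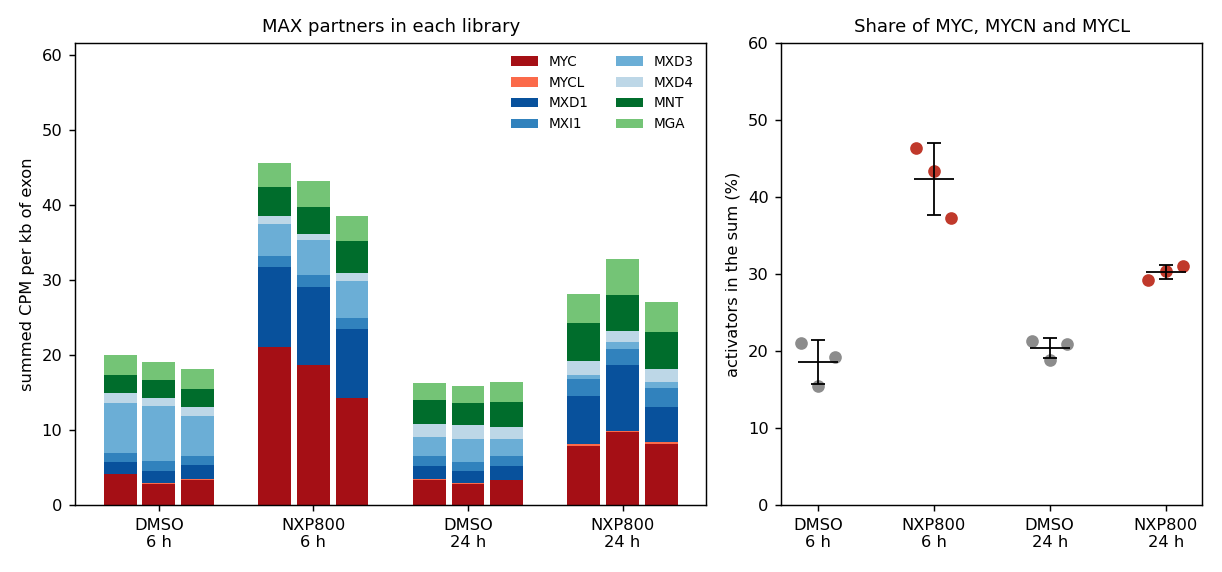
Left, summed CPM per kb of exon of the MAX partners in each of the 12 libraries, stacked by gene, with the activators in red, the MXD genes in blue and MNT and MGA in green. Right, share of the activators MYC, MYCN and MYCL in that sum (%), with DMSO in grey and NXP800 in red and the mean ± SD (n = 3). The share averages 18.6% and 42.3% at 6 h and 20.4% and 30.2% at 24 h for DMSO and NXP800. MYCN, at most 0.0366 CPM per kb, is not drawn in the stacks.

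Genes that act with the network were then examined by list, and their counts are to be read beside the 25.0% of all tested genes that rose and 27.8% that fell at 6 h, and the 27.5% and 28.6% at 24 h. In the parallel arm built on MLX, a MAX-like partner of the glucose-sensing MONDO proteins and of MXD1, MXD4 and MNT, MLX fell at both times (log2 -0.57 and -0.52) and MLXIP was not called. MLXIPL was too low to be tested. Of 15 genes controlling MYC protein stability, 6 rose and 5 fell at 6 h (40% and 33.3%, all genes 25.0% and 27.8%), and 3 rose and 6 fell at 24 h (20% and 40%, all genes 27.5% and 28.6%). SKP2, a ubiquitin ligase subunit that targets MYC, fell to 0.22 of its control at 6 h (log2 -2.19, adjusted p = 7.9e-10, edgeR) and to 0.332 at 24 h. USP36, a nucleolar deubiquitinase of MYC, rose 2.10-fold at 6 h and 1.94-fold at 24 h. PIM1, a kinase that phosphorylates MYC, rose 2.60-fold at 6 h, and at 24 h its log2 fold change was -0.045, which was not called. AURKA and CIP2A, which both protect MYC from degradation, fell at 24 h (log2 -1.14 and -0.82). FBXW7, the ligase that recognises phosphorylated MYC, was not called (log2 0.12 and -0.18).

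Of 12 cofactors of MYC, 5 rose and 4 fell at 6 h (41.7% and 33.3%, all genes 25.0% and 27.8%). At 24 h, 3 rose and 5 fell (25% and 41.7%, all genes 27.5% and 28.6%), so the rises were near the share of all genes. ZBTB17, the MIZ1 protein through which MYC represses genes, rose at 6 h (log2 0.66), and its log2 value of 0.18 at 24 h was called only with the replicate block (adjusted p = 0.0156, edgeR). The acetyltransferase gene KAT2A fell at both times (log2 -0.84 and -0.77), as did HCFC1 (log2 -0.63 and -0.38). Of 8 corepressors used by MXD and MNT, 2 rose and 1 fell at 6 h (25% and 12.5%), and 2 rose and 2 fell at 24 h (25% and 25%), at or below the shares of all genes. HDAC1 fell (log2 -0.60 and -0.54) while HDAC2 rose (log2 0.15 and 0.36), and SIN3A rose by 0.22 at 6 h. Of 12 subunits of the MGA complex PRC1.6, 5 rose and 5 fell at 6 h (41.7% each, all genes 25.0% and 27.8%). At 24 h, 3 rose and 4 fell (25% and 33.3%, all genes 27.5% and 28.6%), or 7 and 4 with the replicate block, under which 32% of all genes rose and 33.1% fell. TFDP1, the E2F6 partner, fell (log2 -0.73 and -0.92), as did CBX3 (log2 -0.47 and -0.69). RING1 rose (log2 0.34 and 0.47), and PCGF6, L3MBTL2 and E2F6, the subunits that define the complex, had log2 fold changes between -0.21 and 0.19, of which L3MBTL2 was called as a fall at 6 h (adjusted p = 0.0373, edgeR). With the replicate block all 3 were called as rises at 24 h (adjusted p = 0.0213, 0.00722 and 0.0373, edgeR).

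Known targets of MYC were counted in the same way. Of 40 genes that MYC activates, 10 rose and 15 fell at 6 h (25% and 37.5%, all genes 25.0% and 27.8%), and 7 rose and 20 fell at 24 h (17.5% and 50%, all genes 27.5% and 28.6%). With the replicate block these counts were 11 and 20 at 6 h, when 28.9% of all genes rose and 33.4% fell, and 11 and 23 at 24 h, when 32% rose and 33.1% fell. The median of this list stood at -0.11 and -0.20 on the log2 scale. Among the rises were RRP12, a ribosome export factor (log2 0.94 and 0.55), HK2, a hexokinase (log2 0.89 and 0.74), and ODC1, the first enzyme of polyamine synthesis (log2 0.69 and 1.04). SLC19A1, a folate carrier, fell at both times (log2 -1.23 and -0.83), as did PTMA (log2 -0.70 and -0.78), and TFAP4 fell at 6 h (log2 -0.95). At 24 h, among genes averaging 1 log2 CPM or more, the largest falls were those of UNG, a DNA glycosylase (log2 -1.13), TFRC, the transferrin receptor (log2 -1.10), and LDHA, lactate dehydrogenase (log2 -0.97). Chosen after their values were seen, and below that level, were CCND2, a cyclin that went from 0.229 to 2.64 CPM at 6 h and from 0.101 to 2.37 CPM at 24 h, and TERT, the telomerase subunit, which fell (log2 -1.04 and -1.63).

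Of 15 tested genes listed here as repressed by MYC, 7 rose and 6 fell at either time (46.7% and 40%). Over all genes the shares were 25.0% and 27.8% at 6 h and 27.5% and 28.6% at 24 h. TXNIP, an inhibitor of glucose uptake, went from 4.25 to 41.1 CPM at 6 h and from 3.67 to 94.7 CPM at 24 h. It was 9.66-fold and 25.8-fold higher with NXP800 (adjusted p = 1.6e-10 and 6.7e-12, edgeR). DDIT3, the stress factor CHOP, rose 8.25-fold and 8.03-fold. GADD45A, a stress sensor, rose at both times (log2 2.63 and 1.70), 6.18-fold at 6 h. CDKN1A, the cell-cycle inhibitor p21, also rose at both times (log2 2.17 and 1.72), 3.29-fold at 24 h. CDKN2C, another cell-cycle inhibitor (p18), fell instead, to 0.221 of its control at 6 h and 0.0911 at 24 h. NDRG2 (log2 -0.85 and -1.69), ID2 (log2 -0.95 and -0.71) and PDGFRB (log2 -0.77 and -1.53) fell at both times as well. The place of ID2 in this list is not settled, and its fall is part of the count of 6 at both times. Targets of the integrated stress response also rose in the NXP800 libraries. TRIB3 rose 18.2-fold and 13.3-fold and ATF3 13.1-fold and 5.31-fold, and ASNS and CHAC1 also rose at both times. With DDIT3, already counted above in the list of MYC-repressed genes, 5 of 5 rose at both times. Over all tested genes 25.0% rose at 6 h and 27.5% at 24 h, and these 5 were chosen with earlier results of these data known. The study itself had reported rises of DDIT3 and TRIB3, and ASNS was low, at 0.508 CPM with DMSO at 6 h. The part of this response in the MYC and MXD1 levels was not tested. Of the noncoding RNAs beside the MYC and MYCN genes, PVT1 alone was high enough to be tested. It rose 1.55-fold at 6 h (log2 0.64, adjusted p = 0.00289, edgeR), and its log2 value of 0.16 at 24 h was not called.

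**Figure D4:**
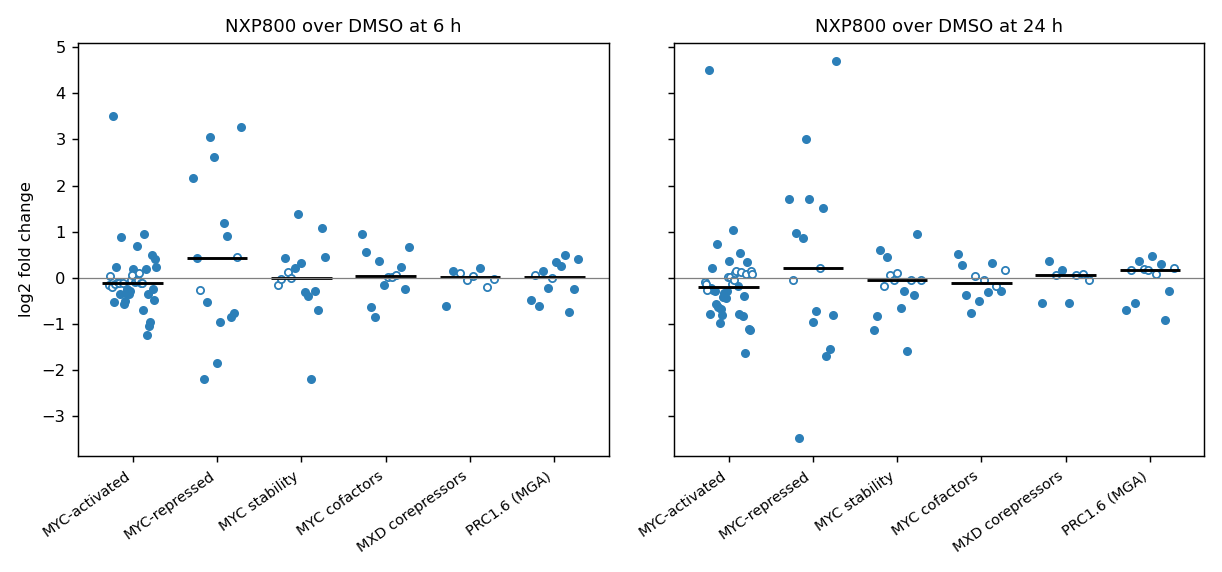
Log2 fold change of NXP800 over DMSO (vertical axis) for the genes of 6 lists at 6 h (left) and 24 h (right). Each point is a gene, filled where the adjusted p is under 0.05 and open otherwise, and the black line is the median of the list. The median of the MYC-activated genes lies at -0.11 and -0.20, while the MYC-repressed genes reach from CDKN2C (-3.46 at 24 h) to TXNIP (4.69 at 24 h).

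Finally, the genes whose log2 CPM followed each network gene most closely over the 12 libraries were listed, among 11884 candidates averaging 1 log2 CPM or more. The libraries form 4 groups, so these Pearson correlations describe mainly shared differences between groups. ZNF468, DUSP5, SGK1, RCAN1 and RUSC2 were the most like MYC, with r from 0.991 to 0.998. DUSP5, a phosphatase of ERK, had log2 fold changes of 1.80 and 1.03, and SGK1, a kinase, of 1.51 and 0.89. MXD1 was most like ZNF160, ATXN1 and ASB1 (r of 0.991 to 0.993). MXD3 was most like MFSD11, SMARCA1 and EIF2S3 (0.983 to 0.993), of which SMARCA1, a chromatin remodeller, had log2 fold changes of -0.22 and -0.81. For MXI1 the closest were DUSP3, STYXL1 and ANK2 (0.976 to 0.987), and for MGA they included ENOX2 and MEAK7 (0.976 to 0.980). MNT was most like HOXB9, HK2 and MYO5B (0.979 to 0.983). MAX was closest to ARIH1, RFTN1 and N4BP3 (0.959 to 0.962), MXD4 to NOSIP, C15orf39 and WIPI2 (0.965 to 0.968) and MYCL to TEAD3, ZNF574 and MBOAT1 (0.971 to 0.974).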

How the data were processed

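RNA sequencing was performed by the study on 12 libraries of MNNG/HOS cells. The deposited files hold raw counts per gene symbol, made by the authors with fastp 0.20.1, STAR 2.7.5a and HTSeq 0.12.4 on GRCh38 with RefSeq genes. The library kit was strand-specific, and the strand setting of the counting is not given in the sources used here. Rows for reads without a feature, ambiguous (2.10% to 2.43%) or not unique (1.86% to 3.37%) were left out of library sizes. Groups were taken from the sample titles.

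The counts were fitted by edgeR 4.0.16 under R 4.3.3 (filterByExpr, TMM, glmQLFit and glmQLFTest) in 1 model of the 4 groups, with the contrasts NXP800 against DMSO within each time and their difference. SE were derived from the fold change and its F statistic. Of 43236 symbols, 15979 passed the filter, MYCN not among them. The procedure was run on simulated counts with 1 common spread, in which 200 genes were changed 2-fold. The main fit recovered 164 of them at 6 h and 149 for the difference, with 10 and 11 other calls. The simulation had far fewer changed genes than these data and no pairing of replicates, so it does not show how the fit performs here. Alternatives were DESeq2 1.42.0, other scalings, filters and thresholds, the libraries of 1 time alone, each library left out, and a replicate block. Within a time, libraries of the same number deviated together from their group means (r of 0.160 to 0.329, against -0.268 to 0.0580 for other pairs). Such deviations cancel within a group, so these ranges are not independent. The labels state no pairing, and a pairing by number is an assumption. The main fit and the fits with a library left out do not use this pairing, and the replicate block does. Exon lengths and overlaps were taken from GENCODE on the same genome, and promoter sequences from RefSeq. Genes named from each list were the 3 largest rises and falls called at each time and averaging 1 log2 CPM or more, besides those whose values are given to complete a group, which were chosen after their values were seen. The network genes and lists were chosen with earlier results of these data known. Some genes that the rule selects are not reported here. Protein sequences were not analysed here. Depth limits precision most for MYCL and MYCN, and intervals from counts of 0 cover counting error only.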

Additional observations from a re-analysis of the deposited data

Results flagged for a closer look

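The response to NXP800 differed between 6 h and 24 h for 5 network genes, by a test of the difference itself (edgeR's quasi-likelihood test, adjusted p under 0.05, 3 libraries a group). The log2 difference, 24 h minus 6 h, was -0.92 for MYC, which rose in 3 of 3 NXP800 libraries at both times but less at 24 h. MXD1 had -0.66, with the weakest support of the 5 (adjusted p = 0.0409, edgeR). The value of MXD3 was -1.37, from a fall that was deeper at 24 h. Those of MXI1 and MGA were 0.59 and 0.43, from rises that were larger at 24 h. The 6 h and 24 h libraries also differed in the share of reads assigned to no annotated feature (6.66% to 8.14% and 2.73% to 3.67%). The part of this share in the differences between times was not tested.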

How the results depend on the processing

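Of 176 values of network genes recomputed under alternatives other than leaving out a library, 172 kept their direction and their side of the threshold. With library size in place of TMM, MXD4 at 24 h changed sign to 0.031 and so did the MNT difference between times, to 0.031, neither being called in any fit, and the MXD1 difference was no longer called (adjusted p = 0.0948, edgeR). Of 324 values with a library left out, 309 were kept. Without 1 library at a time, the MAX difference ranged from -0.027 to 0.061, the MNT difference from -0.10 to 0.017 and MXD4 at 24 h from -0.12 to 0.076. The MXD1 difference kept its call only without DMSO 6 h replicate 3, NXP800 6 h replicate 3 or NXP800 24 h replicate 2. With the replicate block it was -0.69 (adjusted p = 0.00525, edgeR). The block added MXD4 at 6 h, for 8 called genes, left 8 at 24 h and 5 for the difference, and changed no other call of a network gene. Over all genes it gave 9953, 10411 and 6284 calls, against 8435, 8953 and 4129 without it. At an adjusted p under 0.01, 3 of the 5 differences between times remained past the threshold. The percent of activators in DMSO and NXP800 was 14.3% and 35.1% at 6 h and 14.5% and 21.4% at 24 h from CPM without length. With canonical lengths it was 11.9% and 37.7% at 6 h and 15.9% and 30.3% at 24 h. The cause was not tested. Low counts limit what can be said of MYCL and MYCN.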
